A study of Mus musculus with 2 samples.

Results

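The glutathione, thioredoxin and NRF2 antioxidant genes were taken as all genes whose array symbol is that of a glutathione S-transferase, glutathione peroxidase, peroxiredoxin, thioredoxin or thioredoxin-like protein, superoxide dismutase, catalase, glutathione synthesis or reduction enzyme, glutaredoxin, quinone reductase, sulfiredoxin, family 1 aldo-keto reductase, NRF2, NRF1 or KEAP1, with Txnip left out. There were 83 such genes, measured by 154 probe sets, among 18193 genes measured by 34958 probe sets with a single gene symbol. The RNA was labelled as from lung vascular cells of old and of young C57BL/6J mice, with 1 Affymetrix array for each age. Per the labels, the left lobe had been resected (pneumonectomy) and the cells were flow-sorted from what remained, the right lobes. Both ages had the operation and unoperated mice were not analysed here. The sources used here do not give the ages in months, the markers of the sort, the time from operation to sort or how many mice were pooled. With 1 array per group there was no replicate check and no statistical test, so a gene was called by size alone, at 2-fold or more. Every log2 ratio is old minus young, and old cells and young cells stand for the 2 arrays as labelled.

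The tissue label of the old sample is in doubt. Markers of liver sinusoidal endothelium were high there, among them Clec4g (41144 in old and 792 in young cells), Stab2 (24882 and 787), Oit3 (17451 and 29.7) and Gata4 (3834 and 68.6), and so was the hepatocyte gene Alb (8900 and 20.5). The lymphatic endothelial genes Prox1 (60.6 in old and 6885 in young cells) and Nts (27.2 and 10414) were high in the young sample. The sinusoidal marker Stab1 (15887 and 9881), the lymphatic marker Flt4 (18035 and 10262) and Lyve1, a marker of both (14902 and 16120), were within 2-fold. Among lung capillary markers, Gpihbp1 (32563 and 911) and Kit (7595 and 50.8) were higher in old cells and Ednrb (1280 and 11300) in young cells. These values go against a sort of like lung vascular cells at both ages, and 2 arrays do not settle what each sample held. Age, tissue and cell makeup therefore cannot be told apart in any ratio between these samples.

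Cells remove superoxide with superoxide dismutases, and hydrogen peroxide and lipid peroxides with catalase, glutathione peroxidases and peroxiredoxins. Glutathione and thioredoxin supply the electrons for most of these reactions and are themselves reduced by enzymes that use NADPH, while glutathione S-transferases, quinone reductases and aldo-keto reductases dispose of reactive electrophiles, quinones and aldehydes. NRF2, the product of Nfe2l2, is held low by the adaptor KEAP1 until oxidants or electrophiles modify KEAP1, and it then drives many of these genes through the antioxidant response element. Endothelium of the lung is exposed to inhaled oxygen and to oxidants from blood cells, and these enzymes are part of its defence.

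The promoter stretches of 7 genes are shown as a description of their letters. They are those of both quinone reductases, a pair of mu-class transferases with ratios of opposite sign, Sod1, and Gclm and Txnrd1 as known NRF2 targets. Each is the 250 bases before a RefSeq start site in GRCm38.p6, 5′ to 3′ on the gene's strand, and capitals mark matches to TGACNNNGC, the core of the antioxidant response element, on either strand. Nqo2 has 2 start sites and Txnrd1 has 3, of which 1 each is shown. For Txnrd1 it is the only 1 of the 3 with a match, and neither Nqo2 window held a match.
Nqo1 (chr8:107403206-107403455, minus strand): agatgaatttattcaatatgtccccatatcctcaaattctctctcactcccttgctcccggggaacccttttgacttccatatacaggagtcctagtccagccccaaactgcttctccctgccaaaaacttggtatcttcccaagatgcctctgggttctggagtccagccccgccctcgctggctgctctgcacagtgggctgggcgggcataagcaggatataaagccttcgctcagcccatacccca
Nqo2 (chr13:33964409-33964658, plus strand): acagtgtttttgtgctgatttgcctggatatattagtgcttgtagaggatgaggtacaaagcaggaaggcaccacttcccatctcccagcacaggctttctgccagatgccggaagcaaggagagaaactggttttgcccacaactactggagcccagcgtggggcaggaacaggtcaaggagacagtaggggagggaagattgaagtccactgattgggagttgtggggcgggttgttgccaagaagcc
Gclm (chr3:122245307-122245556, plus strand): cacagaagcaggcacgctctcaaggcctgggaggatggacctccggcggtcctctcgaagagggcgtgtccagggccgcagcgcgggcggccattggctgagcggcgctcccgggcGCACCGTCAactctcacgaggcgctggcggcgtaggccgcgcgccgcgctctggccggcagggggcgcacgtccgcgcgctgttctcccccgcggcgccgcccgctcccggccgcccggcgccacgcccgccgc
Txnrd1 (chr10:82858956-82859205, plus strand): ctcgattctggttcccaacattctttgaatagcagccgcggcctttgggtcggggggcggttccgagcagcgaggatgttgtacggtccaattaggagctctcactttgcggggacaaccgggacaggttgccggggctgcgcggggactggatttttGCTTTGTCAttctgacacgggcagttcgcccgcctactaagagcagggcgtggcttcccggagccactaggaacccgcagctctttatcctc
Gstm5 (chr3:107895604-107895853, plus strand): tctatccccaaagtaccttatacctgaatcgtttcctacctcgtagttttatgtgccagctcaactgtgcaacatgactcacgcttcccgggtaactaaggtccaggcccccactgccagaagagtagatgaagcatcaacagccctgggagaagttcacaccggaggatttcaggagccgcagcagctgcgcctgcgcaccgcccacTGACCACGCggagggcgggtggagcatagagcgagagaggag
Gstm2 (chr3:107986421-107986670, minus strand): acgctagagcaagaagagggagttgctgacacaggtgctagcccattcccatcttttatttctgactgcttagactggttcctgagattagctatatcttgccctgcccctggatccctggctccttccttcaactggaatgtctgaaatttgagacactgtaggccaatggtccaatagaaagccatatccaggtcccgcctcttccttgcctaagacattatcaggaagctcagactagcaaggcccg
Sod1 (chr16:90220512-90220761, plus strand): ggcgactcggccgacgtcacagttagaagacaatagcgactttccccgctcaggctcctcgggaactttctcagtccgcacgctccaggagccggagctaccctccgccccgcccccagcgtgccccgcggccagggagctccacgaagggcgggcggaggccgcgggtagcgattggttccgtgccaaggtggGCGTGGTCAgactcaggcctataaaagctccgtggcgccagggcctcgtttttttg
The core TGACNNNGC, searched on both strands over 250 bases before to 50 after the start site, was present in 14 of 75 antioxidant genes with a window (18.7%), against 16.8% of 9778 genes above the floor on at least 1 array and 14.0% of all 27025 genes with a window. Among members 2-fold or more higher in old cells 3 of 16 held it, among those 2-fold or more lower 1 of 5 (Gstm5, at -42 from the start site), and among those not past 2-fold 8 of 42. Matches lay at -134 in Gclm, -92 in 1 of the 3 Txnrd1 windows and -56 in Sod1, and the Nqo1, Nqo2 and Gstm2 windows held none. A match is a description of the letters, not a site shown to be used. Other antioxidant response elements may lie outside these windows.

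Signals are MAS5 values after centring of the log2 ratio, and the floor, below which values have no order, was 73.7 signal units. It was reached by 11450 genes in old cells and by 10659 in young cells. Signal ratios of 3' to 5' probe sets, a mark of RNA integrity, were 1.32 in old cells and 1.20 in young cells (Actb), and 0.718 and 0.806 (Gapdh). All 14 general endothelial markers were above the floor on both arrays, 6 of them past 2-fold toward old cells and 1 toward young cells (summed signal 174443 in old and 101173 in young cells). Of 10 lung capillary markers 7 were measured, 2 toward old and 1 toward young cells (49315 and 22565), while neither array reached the floor for Car4, Fibin or Tbx3. Markers of other cells differed between the arrays along with the results below, and their part in any of them was not tested. Several of these lists went the same way, so a list set beside a gene below does not assign that gene to those cells. All 15 measured hepatocyte markers were past 2-fold toward old cells (summed signal 23278 in old and 894 in young cells), and Alb, Apoa1, Ttr and 10 others did not reach the floor in young cells. Toward old cells too were 10 of 12 liver sinusoidal endothelial markers (217008 and 30469), 9 of 10 macrophage markers (47155 and 597), 8 of 9 leukocyte markers (14653 and 1831), and 7 of 8 fibroblast and smooth muscle markers (44934 and 521). Of 7 lymphatic endothelial markers, 5 were 2-fold or more lower in old cells (35086 and 64662). In lung epithelial markers, 3 of 8 measured were higher and 1 lower (5811 and 541), and Sftpc, Sftpa1, Scgb1a1 and Aqp5 were under the floor on both, as were all 4 erythrocyte markers on the array. Fewer cells of a type and less RNA per cell cannot be told apart in such bulk samples.

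Most antioxidant genes were not past 2-fold, and a few stood far out in each direction. Nqo1, a quinone reductase and a standard NRF2 target, was 22.0-fold lower in old cells, while its relative Nqo2 was 11.6-fold higher. The peroxidase genes Gpx3 (at least 23.1-fold) and Gpx7 (at least 15.2-fold) and the transferase gene Gstm2 (16.4-fold) were higher in old cells. The genes of NRF2 and KEAP1 themselves, of glutathione synthesis and reduction, and of the thioredoxins and their reductases were all within 2-fold. Of the 83 genes, 71 were above the floor on at least 1 array. Of these 71, 17 (23.9%) were past 2-fold toward old cells and 6 (8.45%) toward young cells. Across all 12105 measured genes the shares were 16.0% and 11.3%, and 27.3% in either direction, against 23 of the 71 members. No test of the difference was possible, and the shares over all genes are the reference for the counts by role below. The median log2 ratio of the members was 0.06, beside 0.03 over all genes. On the values as deposited the members had -0.07 and all genes -0.09, and after quantile normalization -0.08 and -0.09. With quantile normalization 15 members were higher and 9 lower.

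**Figure D1:**
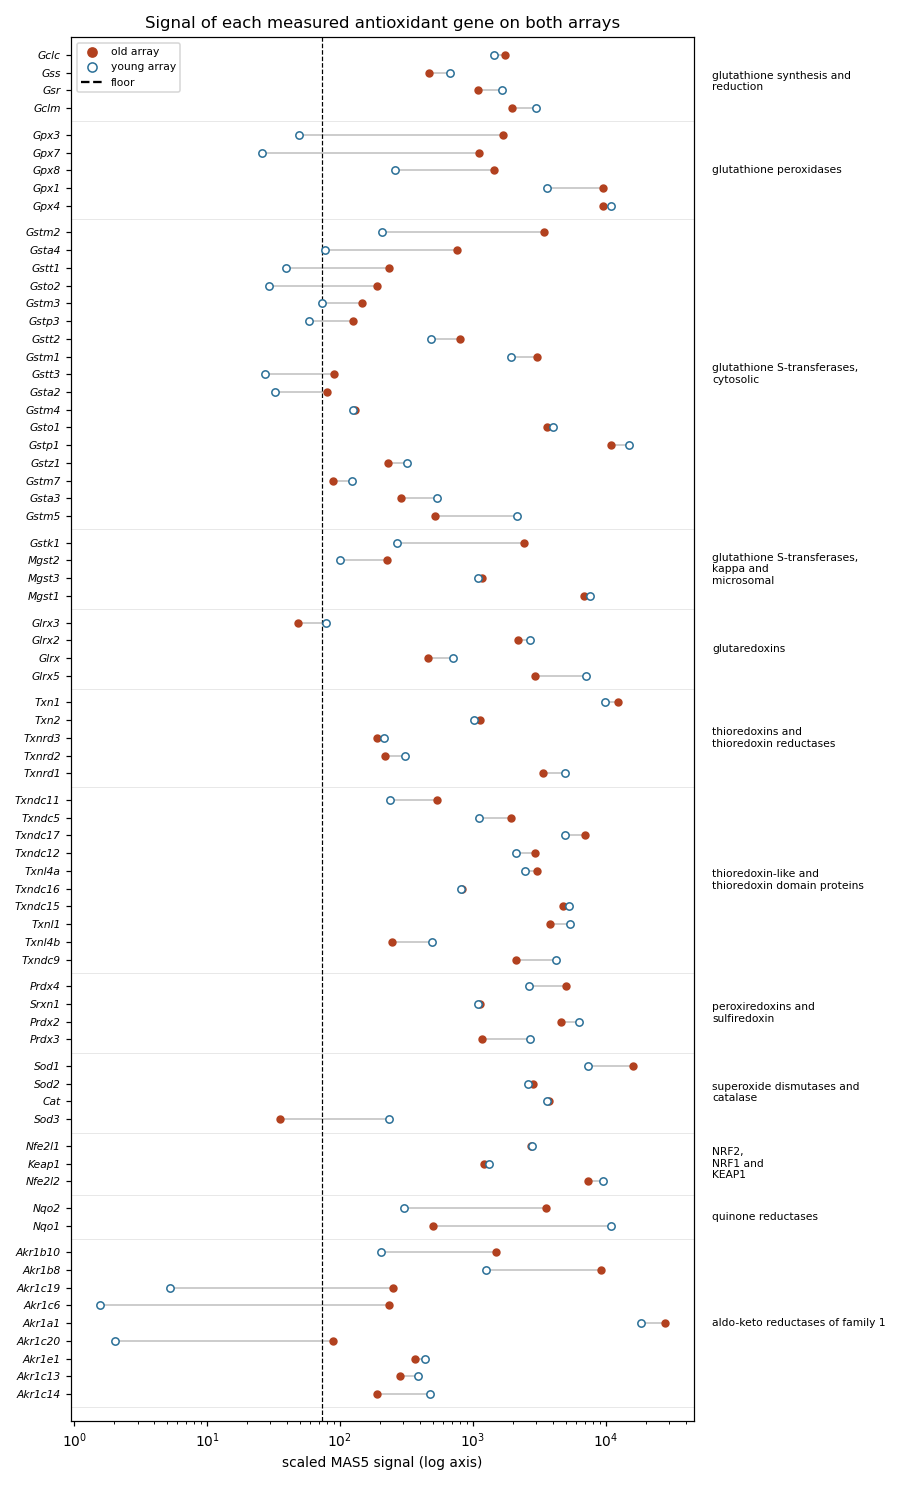
Scaled MAS5 signal (log axis) of the 71 measured antioxidant genes, grouped by role, with filled points for the old array, open points for the young array and a dashed line at the floor of 73.7. Nqo1 (499 in old cells and 10971 in young cells) and Nqo2 (3534 and 305) lie apart in opposite directions, and most other pairs of points lie close together.

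The other 48 measured members were not past 2-fold. Of these, 42 were above the floor on both arrays, with log2 ratios down to -0.996 (Txndc9), and 6 had only a lower bound, the highest of them 0.98 (Gstm3). Of the 58 members above the floor on both arrays, 31 differed by under 1.5-fold. For scale, probe sets of 1 gene differed in log2 ratio with an SD of 0.42 (4514 genes), a spread of probes and not of mice. The 12 members under the floor on both arrays, at signals up to 47.7 in old cells and 30.0 in young cells, were Gpx2, Gpx5, Gpx6, Gstm6, Gstt4, Txndc2, Txndc8, Akr1c12, Akr1c18, Akr1c21, Akr1cl and Akr1d1.

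The genes of the NRF2 switch were within 2-fold. Nfe2l2 had 7322 in old cells, against 9636 in young cells (log2 ratio -0.40), but its second probe set had 0.77, so its direction is not settled by these probes. Keap1, which marks NRF2 for degradation, had 1207 in old cells and 1328 in young cells (-0.14). Nfe2l1, which encodes the related factor NRF1, had 2745 and 2802 (-0.03). The median of the 3 was -0.14.

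Glutathione synthesis and reduction genes were also within 2-fold, 0 of 4 past it. Gclc, the catalytic subunit of the rate-limiting ligase, had 1740 in old cells and 1435 in young cells (0.28, with its other probe set near 0). Its modifier subunit gene Gclm had 1962 and 3012 (-0.62), glutathione synthetase Gss had 467 and 672 (-0.53), and glutathione reductase Gsr had 1094 and 1658 (-0.60). The last 3 were lower in old cells by 1.44 to 1.54-fold on these probe sets, and the group's median was -0.56. Their other probe sets had -0.95 (Gclm), -0.03 (Gss) and -0.02 (Gsr). As the mean over probe sets the group's median was -0.29.

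Of 5 measured glutathione peroxidases, 4 were past 2-fold toward old cells and 0 toward young cells (median 2.49). Over all genes the shares were 16.0% and 11.3%. Gpx3, the secreted plasma enzyme, had 1701 in old cells and 48.9, under the floor, in young cells, a ratio of at least 23.1-fold. Gpx7, an endoplasmic reticulum peroxidase, had 1122 in old cells and 26.2 in young cells, at least 15.2-fold. Its close relative Gpx8, also of the endoplasmic reticulum, had 1456 in old cells, against 260 in young cells (5.60-fold). At the higher floor Gpx3, Gpx7 and Gpx8 had lower bounds of 1.80, 1.20 and 1.58 in log2 ratio. Gpx1, the main selenoenzyme of the cytosol, had 9596 in old cells and 3593 in young cells (2.67-fold). Gpx4, which reduces lipid peroxides in membranes and blocks ferroptosis, had 9575 and 11012 (-0.20), and was the only measured peroxidase within 2-fold. Each of the 4 higher genes rests on 1 probe set. Beside them, the fibroblast and smooth muscle list summed to 44934 in old cells and 521 in young cells, with 5 of its 9 members (Col1a1, Col1a2, Col3a1, Myh11 and Pdgfrb) under the floor in young cells only. The hepatocyte, macrophage, leukocyte and liver sinusoidal endothelial lists were higher in old cells too. The part of any of these cells in the peroxidase values was not tested.

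Of 17 measured cytosolic glutathione S-transferases, 4 were higher in old cells, 1 was lower and 12 were not past 2-fold (median 0.29). Over all genes, 16.0% were higher and 11.3% lower. The count toward old cells was 7 with the lower and 1 with the higher floor, where Gsta4 had a lower bound of 0.63 in log2 ratio. Gstm2, of the mu class, had 3413 in old cells and 208 in young cells (16.4-fold). Gsta4, which conjugates the lipid aldehyde hydroxynonenal, had 756 in old cells and 77.4, just above the floor, in young cells (9.77-fold, close to a lower bound). The theta-class gene Gstt1 had 236 in old cells and 39.1 in young cells (at least 3.20-fold). The omega-class gene Gsto2, a dehydroascorbate reductase, had 191 and 29.4 (at least 2.59-fold). Gstm5 went the other way, with 516 in old cells and 2150 in young cells, 4.16-fold lower in old cells. Gstp1 (11026 in old cells and 15078 in young cells), Gsto1 (3639 and 4008) and Gstm1 (3031 and 1958) were within 2-fold. However, 1 shared-sequence probe set of Gstm1 reached 1.43 in log2 ratio. With quantile normalization Gstp1 had -1.03. Mu-class genes are near-identical copies in part, and probes may not separate them. Hepatocytes, a known site of several transferases, had 15 of 15 measured markers past 2-fold toward old cells, and their part in these values was not tested.

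Among the transferases outside the cytosol, 2 of 4 were higher in old cells and 0 lower (median 0.63). Gstk1, the kappa-class enzyme of mitochondria and peroxisomes, had 2415 in old cells and 268 in young cells (9.03-fold). Mgst2, a microsomal enzyme with leukotriene synthase activity, had 225 and 100.3 (2.24-fold). It was under 2-fold with quantile normalization (0.97) and with the offset (0.93). Mgst1 had 6918 in old cells and 7639 in young cells and Mgst3 had 1180 and 1099, both within 1.5-fold.

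Of the thioredoxins and thioredoxin reductases, 0 of 5 were past 2-fold (median -0.18, and 0.14 with the higher floor). Txn1, the cytosolic thioredoxin, had 12317 in old cells and 9948 in young cells (0.31, and -0.17 with quantile normalization). Txn2, its mitochondrial counterpart, had 1127 and 1023 (0.14). The reductases Txnrd1 (3381 in old cells and 4927 in young cells, -0.54), Txnrd2 (219 and 310, -0.50) and Txnrd3 (190 and 215, -0.18) were lower in old cells by under 1.5-fold. The other probe sets of Txnrd1, both under the floor in old cells, had bounds of -1.64 and -0.28. Those of Txnrd2 ran from -0.77 to 0.21 and those of Txnrd3 from -0.18 to 0.02. Of 10 measured thioredoxin-like and thioredoxin domain genes, only Txndc11 was past 2-fold (median of the group 0.17, and -0.06 as the mean over probe sets). Txndc11 had 536 in old cells and 240 in young cells (2.24-fold). Its second probe set, under the floor in old cells, had a bound of -0.05. Txndc11 had 0.56 as the mean over its probe sets, which takes in that bound, and a lower bound of 0.14 with the higher floor. Txndc5, a disulfide isomerase of the endoplasmic reticulum, had 1957 and 1116 (0.81). At the other end stood Txnl4b (248 in old cells and 493 in young cells, -0.99) and Txndc9, a chaperonin cofactor (2112 and 4212, -0.996), both just short of 2-fold lower in old cells and past it on the values as deposited (-1.12 and -1.13).

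Glutaredoxins had 1 of 4 measured genes past 2-fold, toward young cells (median -0.47). Glrx5, which serves iron-sulfur cluster assembly in mitochondria, had 2960 in old cells and 7116 in young cells, 2.40-fold lower in old cells. Glrx had 461 and 707 (-0.62), and Glrx2 had 2175 and 2715 (-0.32). The only single-symbol probe set of Glrx3 was near the floor (48.1 in old cells and 78.1 in young cells). It passed the floor in young cells only, which sets the sign of its ratio.

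Of the peroxiredoxins and sulfiredoxin, 0 of 4 were past 2-fold toward old cells and 1 toward young cells (median -0.20). Prdx3, the mitochondrial enzyme, had 1176 in old cells and 2720 in young cells, 2.31-fold lower in old cells. Prdx2, of the cytosol, had 4627 and 6313 (-0.45), with a second probe set at -1.36. Prdx4, of the endoplasmic reticulum, had 5050 in old cells and 2646 in young cells (0.93). Its other probe sets had 1.46 and 1.82, and their mean with the first was 1.404. Srxn1, sulfiredoxin, which repairs overoxidised peroxiredoxins and is a standard NRF2 target, had 1142 and 1098 (0.06), with probe sets from -0.30 to 0.75. Prdx1, Prdx5, Prdx6 and Akr1b3 had no probe set with a single symbol and were not analysed here.

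The superoxide dismutases and catalase had 1 gene past 2-fold in each direction (median 0.09). Sod1, the copper-zinc enzyme of the cytosol, had 15979 in old cells and 7357 in young cells (2.17-fold). It was short of 2-fold on the values as deposited (0.99), with quantile normalization (0.71), with loess (0.78) and over all its probe sets (0.78), which ran from -0.16 to 1.29. Sod3, the extracellular enzyme, had 35.4, under the floor, in old cells and 233 in young cells, at least 3.17-fold lower in old cells. Sod2, the manganese enzyme of mitochondria, had 2823 and 2601 (0.12), with probe sets from -0.09 to 0.21, and catalase (Cat) had 3766 and 3603 (0.06).

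**Figure D2:**
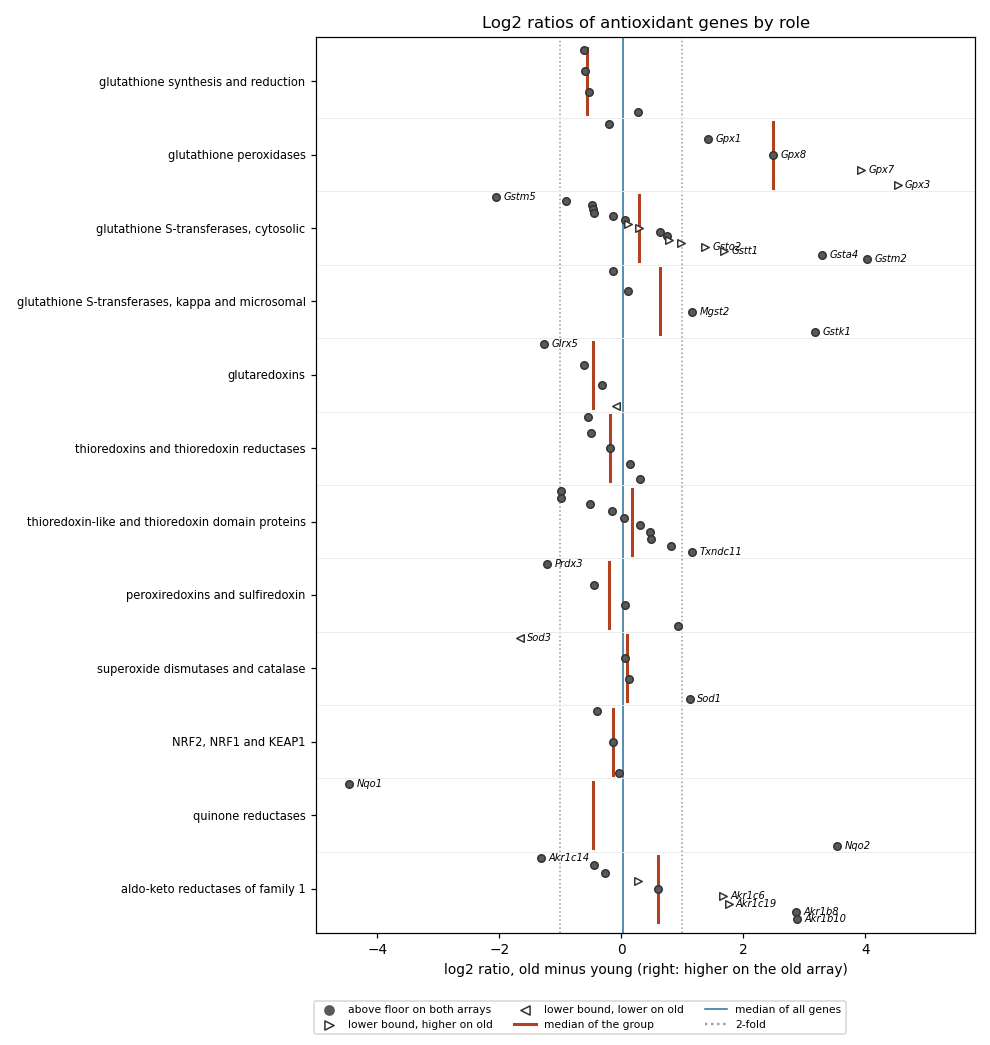
Log2 ratio (old minus young) of each measured antioxidant gene by role group, with the median of each group as a red bar, the median of all genes (0.03) as a blue line, 2-fold as dotted lines and triangles for lower bounds. The peroxidases have a median of 2.49 with 4 of 5 members to the right of 2-fold, and the quinone reductases sit at -4.46 (Nqo1) and 3.54 (Nqo2).

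The quinone reductases lay far apart, with 1 past 2-fold in each direction. Nqo1, which reduces quinones by a pair of electrons and is used as a readout of NRF2, had 499 in old cells and 10971 in young cells (log2 ratio -4.46, from 1 probe set). Over all alternatives its ratio lay between -4.76 and -4.36. Nqo2, which takes electrons from dihydronicotinamide riboside in place of NADPH, had 3534 in old cells and 305 in young cells. Its 3 probe sets had log2 ratios from 3.54 to 4.08, and with the higher floor the gene had a lower bound of 2.85. As shown above, neither upstream stretch holds the searched core.

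Of 9 measured family 1 aldo-keto reductases, 4 were higher in old cells and 1 was lower (median 0.61), beside 16.0% and 11.3% of all genes. Akr1b8 and Akr1b10, aldose reductase-like enzymes that reduce lipid aldehydes, had 9193 and 1495 in old cells, against 1258 and 204 in young cells (7.31-fold and 7.34-fold). The other probe sets of Akr1b10, both under the floor in young cells, had bounds of 0.57 and 1.24, and the mean over all was 1.56. Akr1c19 had 250 in old cells and 5.29 in young cells (at least 3.39-fold). The steroid dehydrogenase gene Akr1c6, known from liver, had 235 and 1.56 (at least 3.19-fold), with 13 of 15 measured hepatocyte markers likewise under the floor in young cells, whose part in this value was not tested. Akr1c14, also a steroid dehydrogenase gene, had 191 in old cells and 474 in young cells, 2.49-fold lower in old cells. Akr1a1, an aldehyde reductase of most tissues, had 28161 and 18509 (0.61). Its probe sets ran from -0.25 to 0.61, and it had -0.17 with quantile normalization.

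Where a gene had several probe sets above the floor, they gave a check on its ratio. Of 33 such members, 11 had probe sets of opposite sign and 3 more had probe sets over 1 apart on the log2 scale. Those of opposite sign were Gclc, Gsta3 (-0.90 and 0.15), Txnrd2, Txnrd3, Txndc11, Txnl4a (-0.64 and 0.31), Srxn1, Sod1, Sod2, Nfe2l2 and Akr1a1, and those over 1 apart were Gstm1, Txnrd1 and Akr1b10. Of the 23 genes past 2-fold only 4 had more than 1 such probe set. In 2 of these (Nqo2 and Akr1b10) all had the same sign. Sod1 and Txndc11 had 1 probe set on the other side of 0, a bound in the case of Txndc11.

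**Figure D3:**
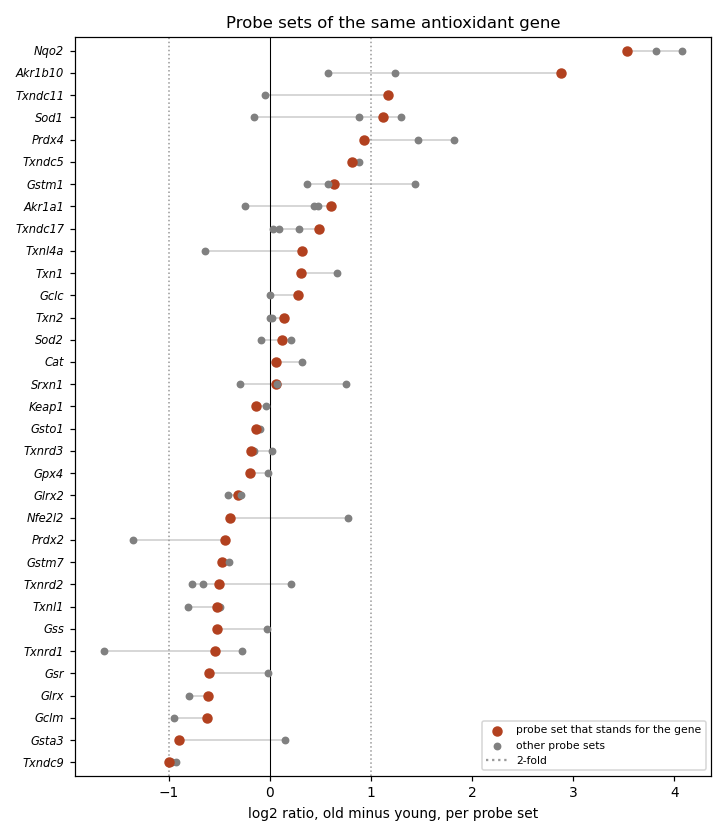
Log2 ratio (old minus young) of each probe set above the floor on at least 1 array, for the 33 antioxidant genes with several, with the probe set that stands for the gene in red, the others in grey and 2-fold as dotted lines. The 3 probe sets of Nqo2 lie between 3.54 and 4.08, while those of Akr1b10, Sod1, Nfe2l2 and Txnrd1 are spread.

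The regulators around NRF2 were mostly within 2-fold, with 3 of 18 higher in old cells and 1 lower. Across all measured genes the shares were 16.0% and 11.3%, which are the reference for the lists below too. The median of the regulators was 0.09, with the opposite sign on the values as deposited, -0.04, and with the higher floor. Bach1, a repressor that competes with NRF2, had 4360 in old cells and 1771 in young cells (2.46-fold). Its lymphoid relative Bach2 was at least 5.84-fold and Nfe2l3 at least 2.71-fold higher, and Mafg, a small Maf partner, had a log2 ratio of 0.97. Maff, another small Maf gene, had 650 in old cells and 4415 in young cells, 6.79-fold lower in old cells. Probe sets of Bach2 ran from -0.17 to 2.55.

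NRF2 targets outside the members did not share a direction. Of 25 measured, 7 were higher in old cells and 6 lower (median -0.20). On the old side were the retinaldehyde dehydrogenase gene Aldh1a1 (2531 in old cells and 5.66 in young cells, at least 34.3-fold) and the export pump genes Abcc4 (6104 and 349, 17.5-fold) and Abcc3 (at least 6.20-fold). Lower in old cells were the microsomal epoxide hydrolase gene Ephx1 (1521 and 9771, 6.42-fold) and Pir (111 and 585, 5.28-fold). Hmox1, the inducible heme oxygenase and a standard NRF2 and BACH1 target, had 2156 in old cells and 7086 in young cells, 3.29-fold lower in old cells. Aldh1a1 and Abcc3 were under the floor in young cells, where hepatocyte markers summed to 894 against 23278 in old cells. Macrophage, leukocyte, liver sinusoidal endothelial, and fibroblast and smooth muscle lists were higher in old cells too. The part of any of these cells in the 2 values was not tested.

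**Figure D4:**
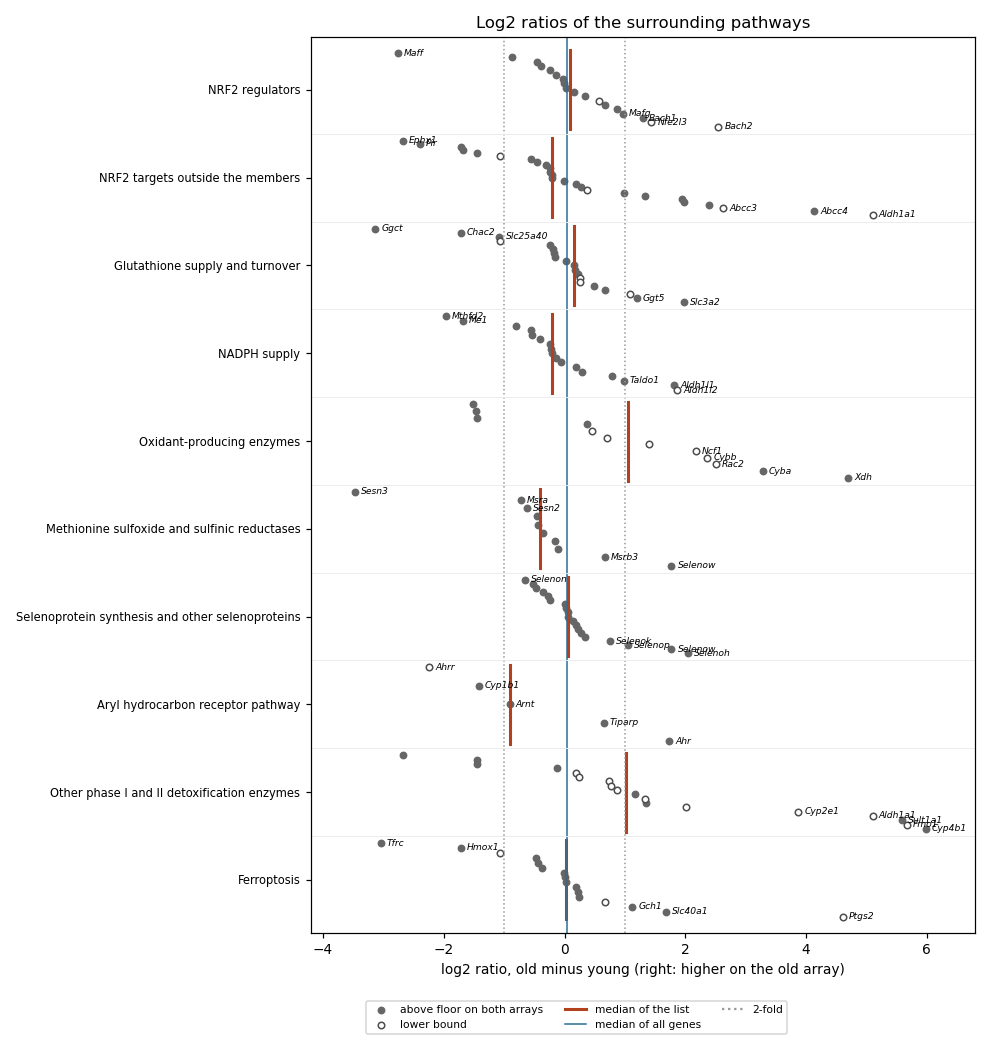
Log2 ratio (old minus young) of the measured genes of the 10 lists around the antioxidant genes, with the median of each list as a red bar, the median of all genes as a blue line, open points for lower bounds and names for the genes given by rule. NRF2 targets extend from -2.68 (Ephx1) to 5.10 (Aldh1a1), with a median of -0.20.

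Supply of glutathione was likewise mixed, with 3 of 19 measured genes higher in old cells and 4 lower (median 0.15). That median turned to -0.18 with the higher floor and to -0.17 without shared-sequence probe sets. Slc3a2, the heavy chain of the cystine and other amino acid exchangers, had 6392 in old cells and 1623 in young cells (3.94-fold). Its cystine-specific partner Slc7a11, also an NRF2 target and chosen after its values were seen, had 26.6, under the floor, in old cells and 154 in young cells, at least 2.09-fold lower in old cells, with its other probe set at -1.36. Ggt5, which splits extracellular glutathione, was 2.29-fold higher. The intracellular breakdown genes Ggct (449 and 3935, 8.77-fold, with a second probe set at -1.32 in log2 ratio against -3.13) and Chac2 (422 and 1388, 3.29-fold) and the carrier gene Slc25a40 (2.11-fold) were lower in old cells. NADPH supply had 2 of 17 higher, the folate enzymes Aldh1l1 (3.51-fold) and Aldh1l2 (at least 3.65-fold), and 2 lower, malic enzyme Me1 (3.21-fold) and the mitochondrial folate enzyme Mthfd2 (3.89-fold). The pentose phosphate gene Taldo1 had 0.98 in log2 ratio, just short of 2-fold, and the list median was -0.21.

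Oxidant-producing enzymes were past 2-fold for 9 of 12 measured members, against 27.3% of all genes. Of the 9, 6 were higher in old cells and 3 lower (list median 1.06). With the higher floor 5 were measured, 2 toward each side. Xanthine dehydrogenase, Xdh, had 4895 in old cells and 189 in young cells (25.9-fold), and Cyba, the small subunit of the NADPH oxidases, had 4212 and 433 (9.73-fold). The phagocyte oxidase genes Cybb (at least 5.15-fold), Rac2 (at least 5.67-fold) and Ncf1 (at least 4.51-fold) were under the floor in young cells, as were 6 of 9 leukocyte markers, a list that also holds Rac2. The part of leukocytes in these values was not tested. Probe sets of Ncf1 ran from 0.24 to 2.17.

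The list of methionine sulfoxide reductases and sestrins also held Oxr1, Park7 and the selenoprotein gene Selenow. In it 1 of 10 was higher in old cells, Selenow itself (14948 and 4383, 3.41-fold), and 1 lower, Sesn3 (410 and 4553, 11.1-fold). Msra (-0.72), Sesn2 (-0.62) and Msrb3 (0.67) were within 2-fold, and the median was -0.40. A list of selenoprotein synthesis genes and of selenoprotein genes outside the members had 3 of 19 higher in old cells and 0 lower. For the list as a whole, that is close to the 16.0% of all genes. Their median was 0.06, with the opposite sign on the values as deposited and with quantile normalization. The 3 higher genes were Selenoh (3261 and 793, 4.11-fold), Selenow and Selenop, the selenium carrier (31034 and 15053, 2.06-fold). All 3 encode selenoproteins, while the measured synthesis genes were within 2-fold. Selenok (0.75) and Selenon (-0.65) were within 2-fold.

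The aryl hydrocarbon receptor is also known to drive Nqo1, and its pathway was set beside it. Of 5 measured genes, Ahr itself was higher in old cells (6112 and 1836, 3.33-fold, with a second probe set at 0.31). Its target and feedback repressor Ahrr was under the floor in old cells (34.2, against 349 in young cells, at least 4.73-fold lower) and its target Cyp1b1 was 2.68-fold lower (488 and 1308). Its partner Arnt (-0.91) and the target Tiparp (0.65) were within 2-fold, and Cyp1a1 was under the floor on both arrays. The list median was -0.91, and 0.23 with the lower floor. Next to these groups stood the cytochrome P450, UGT and sulfotransferase genes, which share the detoxification role of the transferases. There 19 of 43 measured members were higher in old cells and 3 lower (median 0.77), against 17 and 6 of 71 antioxidant genes (median 0.06). Over all genes the shares were 16.0% and 11.3%. These differences could not be tested with 1 array per group.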

How the data were processed

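Values are the deposited MAS5 intensities, linear, 1 per probe set. Per the submitters' processing notes the authors used GCOS 1.4 and MAS5. The deposited intensity values have a 2% trimmed mean of 500.003 in each sample. No batch label was given. Of 45101 probe sets, 64 controls were dropped. In the 2016 platform annotation 34958 probe sets had 1 symbol (those used), 932 several and 9211 none. All 83 member symbols matched RefSeq. The log2 ratio was centred on probe sets above both array medians (-0.13 before), with factors of 1.05 (old) and 0.956 (young). The floor is the larger median after scaling. Of several probe sets, the one brightest on average in log2 stands for the gene. Where only 1 array passed the floor, the floor replaced the lower value, giving a lower bound. Where neither passed, no ratio was taken.

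Named were all members past 2-fold, members fixed by name whatever their values, members whose probe sets disagreed, and up to 5 genes outside the members with the largest absolute ratio in each of 10 pathway lists. The members, these lists and 10 marker lists were chosen with earlier results of these data known. Alternatives were the values as deposited, quantile normalization, loess (span 0.4), floors at the 25 and 75 percentiles (lower and higher floor), adding 0.5 times the floor before log2 (offset), the mean over probe sets, and omission of _x_at and _s_at probe sets (shared-sequence). The scaling and the 2-fold call were tried on simulated data, with set ratios in bright probe sets only and each probe set as its own gene. That trial does not test the floor, the choice of probe set or the spread between mice. Promoters are from RefSeq, GRCm38.p6. Software was Python 3.11.15 with numpy 2.4.6, pandas 2.3.3, statsmodels 0.14.6 and matplotlib 3.10.9.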

Additional observations from a re-analysis of the deposited data

How the results depend on the processing

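With 8 alternatives, all 177 ratios obtained for the 23 genes past 2-fold kept their sign and 168 stayed past 2-fold. In every alternative that gave a value, 19 of the 23 genes stayed past 2-fold. Several alternatives could change little by construction. Floor and offset settings cannot turn a sign, and none of the 23 genes rests on a shared-sequence probe set. The mean over probe sets can change only the 4 genes with several measured probe sets. The count of members higher in old cells was 10 with the higher floor and 15 to 23 otherwise, and the count lower in old cells was 4 to 9. With the higher floor 51 members were measured in place of 71, which removes low-signal genes by construction. The genes that lost the call in some alternative with a value were Sod1 (0.71 to 0.99), Mgst2 (0.93 to 0.97), Txndc11 (0.14 to 0.56) and Gsta4 (0.63). The 0.14 and 0.63 are lower bounds at the higher floor. Txnl4b and Txndc9 were past 2-fold lower in old cells on the values as deposited (-1.12 and -1.13) and with quantile normalization (-1.05 and -1.12). Gpx3 and Gpx7 had 5.12 and 5.42 in log2 ratio with the lower floor, which both arrays passed, and lower bounds of 1.80 and 1.20 with the higher floor, where Gstm2 and Gstk1 had lower bounds of 2.80 and 2.31. That floor gave no value for Gstt1, Gsto2, Mgst2, Sod3, Akr1c19, Akr1c6 and Akr1c14. The values as deposited and quantile normalization gave a median of all genes of -0.09, in place of 0.03. The median of dismutases and catalase turned to -0.04 under both. No paired analysis was possible because each group has 1 array. Signal near the floor limits the size of every lower bound.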

Other observations

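Several of the antioxidant genes lie in tandem clusters in RefSeq (GRCm38.p6), and members of a cluster differed in their ratios. In the cluster of 7 mu-class genes on chromosome 3, the measured genes in their order were Gstm5 (log2 ratio -2.06), Gstm7 (-0.47), Gstm3 (at least 0.98), Gstm2 (4.03), Gstm1 (0.63) and Gstm4 (0.06). In the cluster of 9 aldo-keto reductase genes on chromosome 13, they were Akr1c14 (-1.31), Akr1c13 (-0.45), Akr1c19 (at least 1.76), Akr1c6 (at least 1.67), Akr1c20 (at least 0.28) and Akr1e1 (-0.26). The omega-class neighbours Gsto1 and Gsto2 on chromosome 19 had -0.14 and at least 1.37. Akr1b8 and Akr1b10, adjacent on chromosome 6, had 2.87 and 2.88. The theta-class genes Gstt3, Gstt1 and Gstt2 on chromosome 10 had at least 0.29, at least 1.68, and 0.74. The alpha-class genes Gsta4 and Gsta2 on chromosome 9 had 3.29 and at least 0.12. A lower bound takes its sign from the array that passed the floor, so it does not show a direction shared with its neighbours. Near-identical copies can share probes, which these values do not separate. The Gstm3 value rests on a shared-sequence probe set alone, as its other probe set was under the floor on both arrays. The Gstm1 value is also from a shared-sequence probe set, and a probe set of Gstm1 outside that kind had 0.58.

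Of other detoxification enzymes, 9 of 18 measured were higher in old cells and 3 lower (median 1.02), beside 16.0% and 11.3% of all genes. Cyp4b1, known from lung, had 28264 in old cells and 448 in young cells (63.2-fold). The flavin monooxygenase gene Fmo1 was at least 50.9-fold, Sult1a1 48.2-fold and the hepatocyte marker Cyp2e1 at least 14.6-fold higher there. Hepatocyte markers summed to 23278 in old and 894 in young cells, and their part in these values was not tested. Among ferroptosis genes 3 of 16 were higher in old cells and 3 lower (median 0.02, with the opposite sign on the values as deposited, -0.11, with quantile normalization, -0.16, with loess, -0.05, and over all probe sets, -0.04). Ptgs2, the inducible cyclooxygenase, was at least 24.4-fold higher (its other probe set 1.42 in log2 ratio) and the iron exporter gene Slc40a1 3.19-fold higher in old cells, where the iron uptake receptor gene Tfrc was 8.25-fold lower (195 and 1612).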
